A study of Nicotiana tabacum with 30 samples.

Results

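The leaf transcriptome of the tobacco (Nicotiana tabacum) mutant line M28 was compared with that of its parent cultivar K326 at 4 h of drought, with 3 libraries a side, which are 6 of the 30 libraries of the study. M28 was obtained from K326 by mutagenesis with ethyl methanesulfonate (EMS), is labelled as a mutant with enhanced drought resistance, and is represented by 1 line, so that its differences from K326 cannot be assigned to 1 mutation. Libraries were chosen by their labels alone. The 6 libraries taken at 0 h, 3 per genotype, served to separate differences that were already there before drought from those that were not, and the libraries of 1, 2 and 8 h served to follow the genes over time. Seedlings were grown in pots of nutrient soil and sampled once they had several full leaves. The protocol describes natural drought as well as simulated drought with 200 mM mannitol, and the labels do not say which of these a library had. Well-watered plants at the later times are not part of these samples, so hours of drought and time of day cannot be told apart, although both genotypes share them. The tissue is labelled leaf, whereas the source field speaks of seeds, and no marker of either tissue could be checked, because the gene IDs could not be paired with names.

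Loss of water is sensed in plants within hours and is followed by the accumulation of abscisic acid, which closes the stomata and, through receptors, phosphatases and kinases, turns on genes for protective proteins, compatible solutes and detoxification, while genes of photosynthesis and growth are often turned down. A tolerant line can differ from its parent before water is withheld, in the response itself, or in both. EMS mainly makes single base changes scattered over the genome, and a change in a regulator can alter many genes elsewhere. Tobacco is an allotetraploid and carries closely related copies of many genes, whose reads a counting program can split, so each gene value here may contain reads of a near-identical copy.

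Expression was given as FPKM, in which fragments are scaled by gene length and by the total mapped in a library, and differences are M28 minus K326 on the scale of log2(FPKM + 1), which understates the differences of low genes. Of 35519 gene IDs, 8832 were listed at 0 in every library, 7088 lay above 0 with a mean below 1 FPKM, and 19599 were tested. Calls required an adjusted p under 0.05 (limma, Benjamini-Hochberg) in a fit of all 30 libraries. Replicates at 0 and 4 h correlated with Pearson coefficients from 0.984 to 0.989. The depth in reads is unknown, but from the smallest steps in low values the 12 libraries of 0 and 4 h had 0.924 to 1.02 times the depth of the mean library. The 100 most abundant genes held 33.76 to 34.77% of the FPKM total in the K326 libraries at 4 h and 26 to 27.38% in those of M28. At 0 h they already held 34.42 to 38.76% in K326 and 26.08 to 30.88% in M28. The median log2 difference of all tested genes at 4 h was 0.17 in FPKM as deposited, against 0.00 once libraries were scaled by median of ratios, so small differences have no fixed direction. Nothing in the labels ties a library to a separate plant. The p-values set each difference against the spread between these libraries within groups, which may in part be technical.

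At 4 h, most genes that differed strongly between M28 and K326 had already differed in the same direction at 0 h. The genotypes differed in 7172 of 19599 genes (36.6% called), 5567 higher (28.4%) and 1605 lower (8.19%) in M28. At least 2-fold differences were called for 770 genes (3.93% of those tested), 478 higher (2.44%) and 292 lower (1.49%) in M28, and in 768 of them the 3 M28 libraries did not overlap with the 3 K326 libraries, against 50.3% of all tested genes. Of the 770 genes, 482 (62.6%) were also called at least 2-fold in the same direction at 0 h. A further 163 were called in the same direction at 0 h with less than a 2-fold difference. At 0 h, 5.46% of all genes were called at least 2-fold and 47% were called at any size, counting both directions. The 0 h and 4 h comparisons share no library, but both take the residual spread of each gene from the same fit. Another 2 genes were called in the opposite direction at 0 h. The remaining 123 genes were not called at 0 h. For 33 of these (4.29% of the 770) the change of the genotype difference from 0 to 4 h was itself called, and they are described as new. For the other 90 genes that change was not called, so whether they are new was not decided. At 0 h, 1070 genes differed at least 2-fold. In the reverse direction, 78 of these were not called at 4 h, with the change called. A further 135 were not called at 4 h and their change was not called, so whether those were gone was not decided. Still called in the same direction at 4 h, but below 2-fold, were 373.

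**Figure D1:**
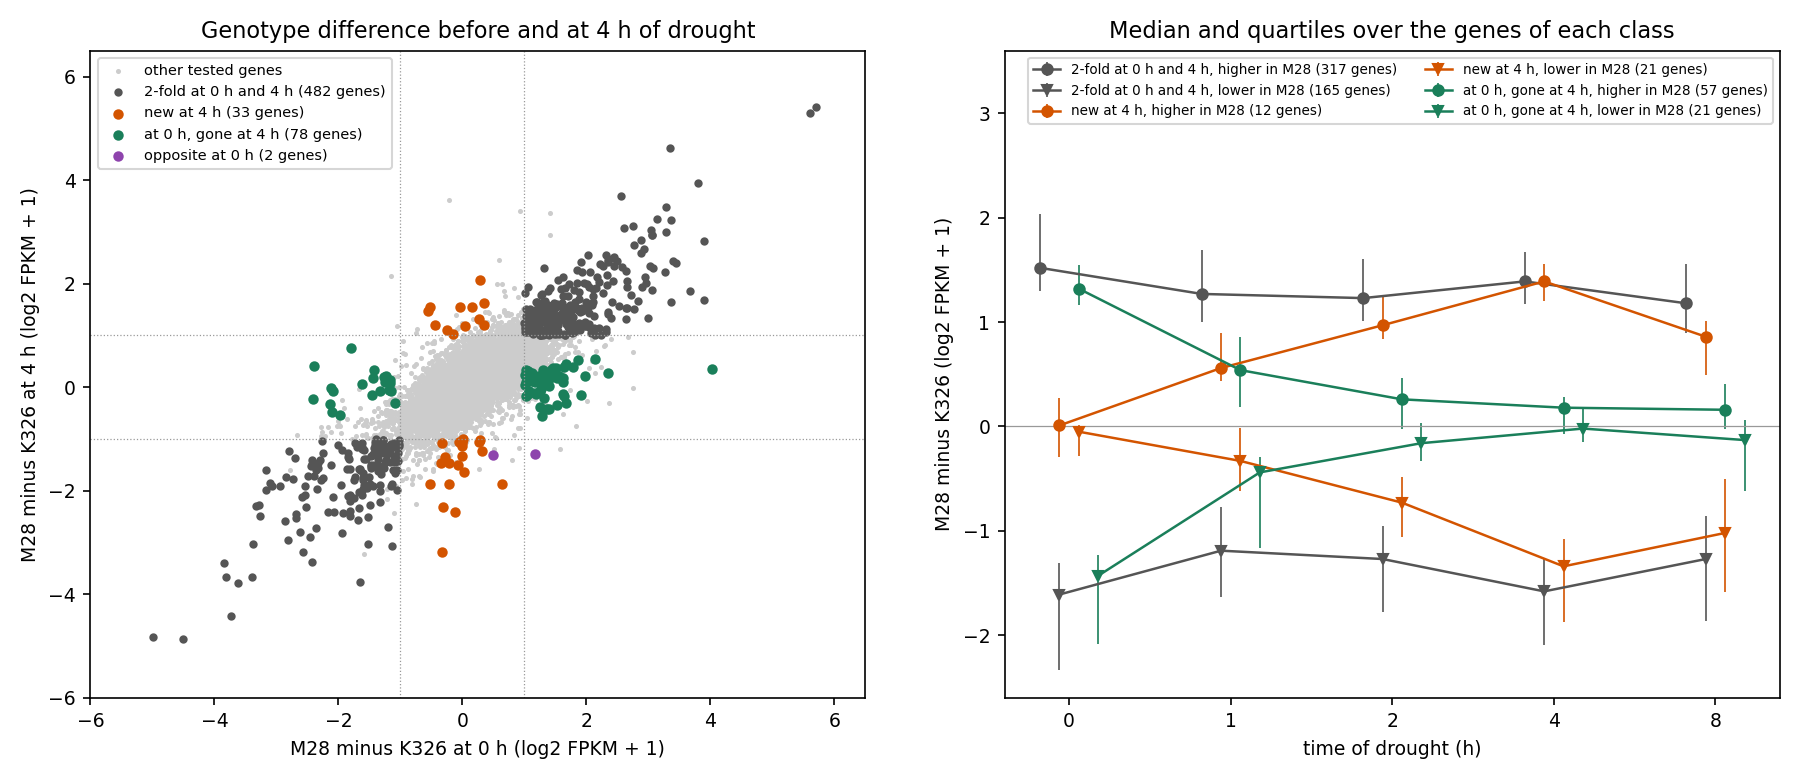
Left, log2 difference M28 minus K326 at 4 h against that at 0 h, on the scale of log2(FPKM + 1), 1 point per tested gene, with dotted lines at 2-fold. Right, median (points) and quartiles (bars) of the log2 difference over the genes of each class at 0, 1, 2, 4 and 8 h. The 482 genes 2-fold at both times lie along the diagonal, as their choice requires. For the same reason the 33 new genes lie near 0 at 0 h and the 78 genes that were gone lie near 0 at 4 h. Differences at 1, 2 and 8 h were not used for the choice, but those libraries entered the filter and the residual spread of the fit.

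The split between directions depended on the scaling of the libraries. Of the 7172 genes called at 4 h, 77.6% were higher in M28, against 44.6% of 5282 genes with median-of-ratios scaling, 53.7% of 5268 with quantile normalization and 86.6% of 9080 with equal FPKM totals, and 47.4% of the 7172 were called under each of them. Of the 770 genes with at least a 2-fold difference, 62.1% were higher in M28, against 43.2% of 746 genes with median-of-ratios scaling, 45.1% of 768 with quantile normalization and 71% of 858 with equal FPKM totals. Scaling by ratios or quantiles centres the genes, and equal totals fix their sum, so no setting decides the direction. The same 559 genes (72.6%) were called 2-fold in all of them.

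Among the genes that differed at least 2-fold at both times, 317 were higher and 165 lower in M28. The higher genes had a median log2 difference of 1.52 at 0 h and 1.39 at 4 h, and the lower genes one of -1.61 at 0 h and -1.58 at 4 h. These are the times on which the genes were chosen. At 1 and 8 h the direction was held in most of them, but the median differences were smaller. The higher genes had medians of 1.27 at 1 h and 1.18 at 8 h, and the lower genes -1.19 and -1.27. Called at least 2-fold were 237 of the higher and 99 of the lower genes at 1 h. At 8 h these counts were 211 and 110. Differences at 1 and 8 h were not used for the choice, but the libraries of those times entered the filter and the residual spread of the fit. At 1 h, 304 of the 317 higher genes (95.9%) were called higher, where 31.9% of all genes were, and 126 of the 165 lower genes (76.4%) were called lower, where 7.11% were. At 8 h, 288 of the 317 higher genes (90.9%) were called higher, where 21.5% of all genes were, and 133 of the 165 lower genes (80.6%) were called lower, where 6.96% were. Of the 482 genes, 27 had a called change between 0 and 4 h, and in 4 of those the difference was larger at 4 h. With median-of-ratios scaling 45.6% of 467 such genes were higher in M28, against 65.8% in FPKM as deposited.

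The gene with the largest difference in M28's favour at 4 h was Nitab4.5_0001476g0060, which read 166, 153 and 146 FPKM in the M28 libraries and 2.87, 3.14 and 1.99 FPKM in those of K326. The lowest M28 library thus lay far above the highest of K326, and the spread within each genotype was small beside the gap (5.42 on the log2 scale, SE 0.274, adjusted p = 1.2e-13). Nitab4.5_0000028g0320 read 189, 153 and 209 FPKM in M28 and 5.61, 2.45 and 3.45 FPKM in K326, a log2 difference of 5.30 (SE 0.408, adjusted p = 4.42e-10). Again no library overlapped. Genes of this class were named by size and only if their libraries did not overlap at 4 h, so these gaps describe the choice. For neither gene was the change of the difference since 0 h called (adjusted p = 0.775 and 0.846).

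Genes lower in M28 at both times included Nitab4.5_0005041g0010, which read 29.1, 29.4 and 25.5 FPKM in the K326 libraries of 4 h, with the 3 M28 libraries listed at 0 (adjusted p = 1.36e-20). It was also listed at 0 in the M28 libraries of every other time. Nitab4.5_0003766g0010 varied widely in K326 at 4 h, with 19.9, 41.6 and 88.8 FPKM, and was listed at 0 in M28 replicate 1 and at 0.859 and 0.870 FPKM in replicates 2 and 3 (log2 difference -4.83, SE 0.539, adjusted p = 2.26e-07). Its K326 libraries moved over the course while those of M28 stayed low: from a K326 mean of 99.3 ± 27.8 FPKM (SD, n = 3) before drought, it went to 8.82 ± 5.34 FPKM after 1 h, 14.8 ± 8.49 after 2 h and 31.7 ± 2.94 after 8 h, and the highest group mean in M28 was 3.49 ± 4.03 FPKM at 8 h.

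**Figure D2:**
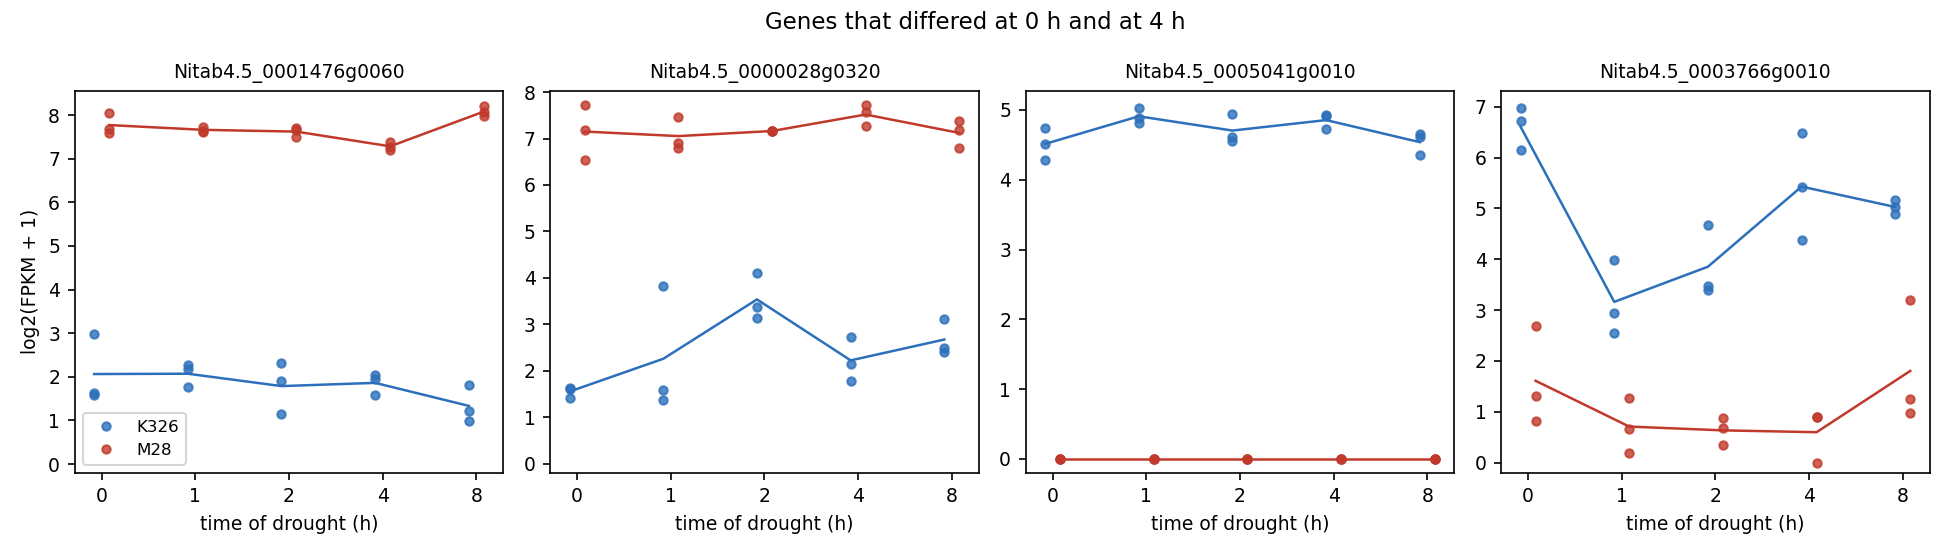
Expression of the 4 named genes that differed at 0 h and at 4 h, as log2(FPKM + 1) by hours of drought, 1 point per library and lines through the group means (3 libraries each). The red M28 points and the blue K326 points stay apart at every time, at 4 h as their choice requires. The third gene lies at 0 in each M28 library.

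Absence of signal in one genotype was seen for a few of the 770 genes. At 4 h, 7 genes were listed at 0 in the 3 M28 libraries, with K326 means from 2.07 to 28.0 FPKM, and 4 of these were listed at 0 in all 15 M28 libraries and above 0 in all 15 of K326. Conversely, 9 genes were listed at 0 in the 3 K326 libraries at 4 h, with M28 means from 1.24 to 19.6 FPKM, and 3 of these were listed at 0 in all 15 K326 libraries and above 0 in all 15 of M28. An exact 0 can be a failed estimate, and a lost gene cannot be told apart here from a silent one.

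In the median, the genes with a new difference moved more between 0 and 4 h in K326 than in M28. The 21 genes that were new and lower in M28 had a median change from 0 to 4 h of 2.53 in K326 and of 0.97 in M28 on the log2 scale. The 12 that were new and higher in M28 had a median change of -1.66 in K326 and of -0.28 in M28. These changes use the libraries on which the genes were chosen and are given as a description. The median differences widened from 1 to 4 h and were smaller at 8 h than at 4 h, the time on which the genes were chosen: over 1, 2, 4 and 8 h, the median log2 difference of the lower genes was -0.33, -0.73, -1.34 and -1.02, and that of the higher genes 0.56, 0.97, 1.39 and 0.86. The differences at 8 h were not used for the choice, but those libraries entered the filter and the residual spread of the fit. At 8 h, 17 of 21 lower genes were called lower (6.96% of all genes were) and 9 of 12 higher genes were called higher (21.5%). Without M28 8 h replicate 3, whose relative depth was 0.483, these counts were 18 and 8. At 2 h the counts were 15 of 21 (7.56% of all genes) and 11 of 12 (19.7%).

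The largest new difference was that of Nitab4.5_0000136g0200, which at 4 h read 60.1, 33.4 and 45.9 FPKM in K326 and 8.96, 2.54 and 2.80 FPKM in M28. The K326 libraries all lay above those of M28, as the choice of named genes required. At 0 h the ranges overlapped, with 0.398 to 2.02 FPKM in K326 and 0.116 to 1.14 FPKM in M28. The log2 difference at 4 h was -3.17 (SE 0.421, adjusted p = 2.9e-06) and its change from 0 h was -2.85 (SE 0.596, adjusted p = 0.00569). Adding 0.1 FPKM in place of 1 before the logarithm gave the change an adjusted p of 0.0661, within a range of 0.00177 to 0.0661 over the alternatives.

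Nitab4.5_0000716g0020 rose from low levels in both genotypes. At 4 h it read 19.8, 11.7 and 12.5 FPKM in K326 and 3.16, 3.67 and 0.249 FPKM in M28, without overlap, as its choice required. At 8 h the means were 82.6 ± 21.1 FPKM in K326 and 24.1 ± 12.9 FPKM in M28 (SD, n = 3). The log2 difference at 4 h was -2.40 (SE 0.424, adjusted p = 0.000105), with a change from 0 h of -2.28 (SE 0.6, adjusted p = 0.0293). That change was not called with a pseudocount of 0.1 FPKM (adjusted p = 0.0957), nor without M28 0 h replicate 2 or 3, M28 4 h replicate 3, K326 0 h replicate 2 or 3, or K326 4 h replicate 1, with adjusted p-values from 0.0525 to 0.089 (range over the alternatives 0.0176 to 0.0957).

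In the other direction, Nitab4.5_0000306g0170 kept its level in M28 at 4 h, with 171, 163 and 185 FPKM, and read 60.6, 46.5 and 60.9 FPKM in K326. At 0 h the genotypes overlapped, with 112 to 166 FPKM in M28 and 109 to 121 FPKM in K326. Its log2 difference was already 1.61 at 2 h (SE 0.18). By 8 h the means had fallen to 61.9 ± 4.73 FPKM in M28 and 19.1 ± 1.87 FPKM in K326 (SD, n = 3). The log2 difference at 4 h was 1.62 (SE 0.18, adjusted p = 2.08e-07) and its change 1.27 (SE 0.254, adjusted p = 0.00416), called under all 22 alternatives. Nitab4.5_0001461g0050 read 9.70, 9.63 and 9.56 FPKM in M28 and 1.82, 1.21 and 1.63 FPKM in K326 at 4 h, from overlapping values of 7.77 to 19.0 and 7.49 to 14.0 FPKM at 0 h. Its log2 difference was larger at 2 h (3.17, SE 0.352) than at 4 h. At 8 h its means were 1.85 ± 0.435 FPKM in M28 and 0.253 ± 0.285 FPKM in K326. Its difference at 4 h was clear (log2 difference 2.06, SE 0.352, adjusted p = 7.11e-05), but its change (1.79, SE 0.497, adjusted p = 0.0396) was not called in 12 of 22 alternatives, which included leaving out M28 0 h replicate 1, K326 0 h replicate 1 or 2, or any 1 of the 6 libraries of 4 h (adjusted p from 0.0634 to 0.106, range over the alternatives 0.019 to 0.106).

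**Figure D3:**
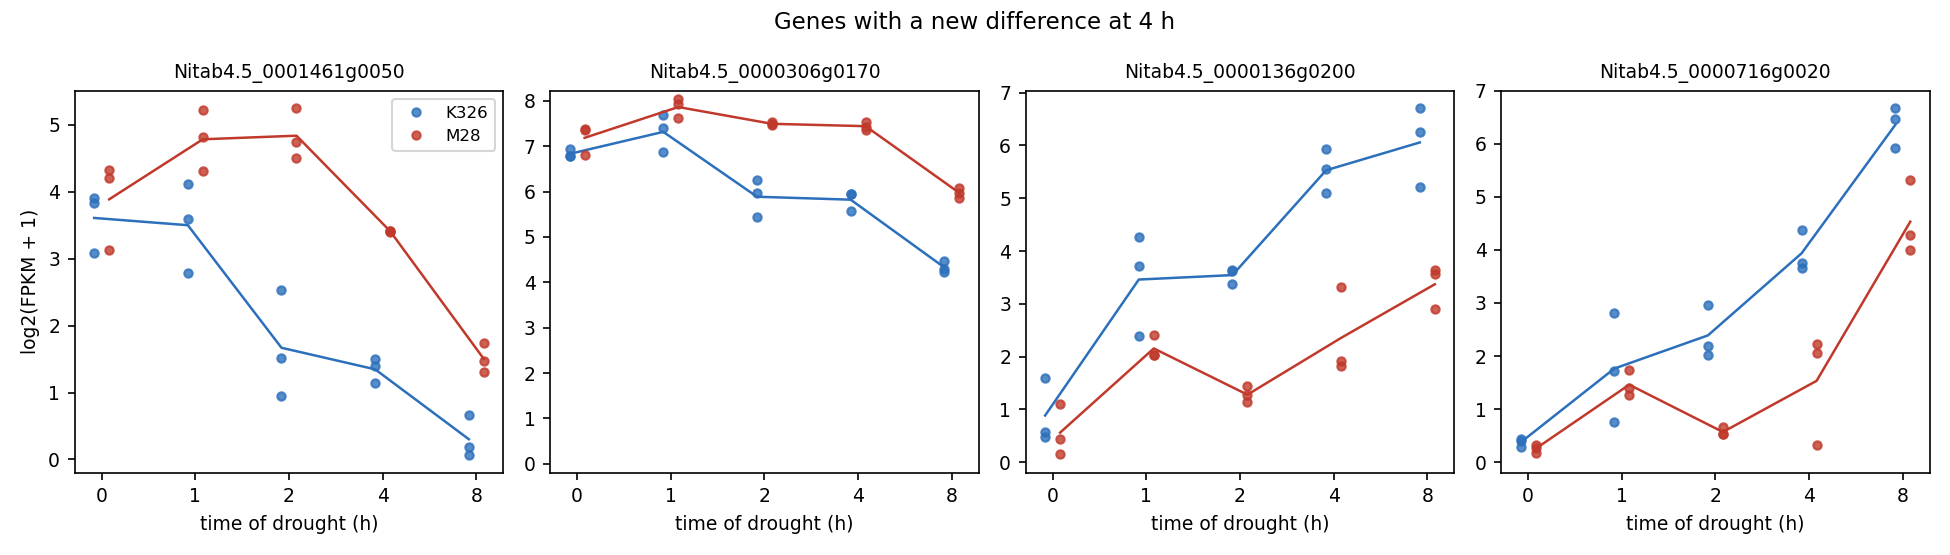
Expression of the 4 named genes with a new difference at 4 h, as log2(FPKM + 1) by hours of drought, 1 point per library and lines through the group means (3 libraries each). The genotypes overlap at 0 h and are apart at 4 h, the latter as their choice requires. In the last pair of genes the blue K326 line climbs ahead of the red M28 line.

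Of the 33 new genes, 5 met the definition under all 22 alternatives, and they are named for that reason, after their values were seen. Nitab4.5_0000645g0140 was at 23.5 ± 2.82 FPKM in M28 and 7.33 ± 0.571 in K326 at 4 h (SD, n = 3), from means of 3.81 and 5.76 at 0 h. Nitab4.5_0000914g0300 fell in both genotypes, from 34.9 and 35.0 FPKM to 16.8 ± 3.83 in M28 and 5.03 ± 0.696 in K326. Nitab4.5_0002016g0030 stood at 31.7 ± 1.24 FPKM in M28 and 12.2 ± 1.75 in K326, from 15.8 and 12.9 FPKM. The other pair was lower in M28: Nitab4.5_0000106g0180 at 32.9 ± 5.12 against 94.7 ± 18.6 FPKM, and Nitab4.5_0001180g0150 at 4.13 ± 1.62 against 17.4 ± 3.52 FPKM. Their changes of the log2 difference lay between -1.66 and 2.08, with adjusted p-values from 0.00147 to 0.0179. Without K326 4 h replicate 3, 21 genes were new.

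Among differences that were present at 0 h and gone at 4 h, the median movement was larger in K326 than in M28. The 57 genes higher in M28 at 0 h (median log2 difference 1.32) had a median difference of 0.18 at 4 h, with a median change since 0 h of 1.17 in K326 and -0.12 in M28. The 21 genes lower in M28 at 0 h (median -1.43) had a median of -0.02 at 4 h, with changes of -2.62 in K326 and -0.91 in M28. These values use the libraries that chose the genes. In the libraries of 8 h, 9 of the 57 were called higher (15.8%, against 21.5% of all genes) and 1 of the 21 lower (4.76%, against 6.96%), and without M28 8 h replicate 3 the counts were 6 and 4. The share higher in M28 was 73.1% in FPKM as deposited, 56.5% with median-of-ratios scaling and 56.9% with quantile normalization.

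Nitab4.5_0000980g0290 closed the gap mostly from the side of M28. It read 373, 520 and 547 FPKM in M28 at 0 h against 45.2, 20.2 and 24.5 in K326, and 78.4, 71.5 and 96.8 against 55.4, 55.7 and 84.5 FPKM at 4 h. The groups were far apart at 0 h, as the choice of named genes required, and overlapped at 4 h (log2 difference 4.02 and 0.35, change -3.68, SE 0.382, adjusted p = 5.79e-06). At 8 h this gene was again called higher in M28 (log2 difference 0.88, SE 0.27, adjusted p = 0.0165). The 8 h means were 395 ± 73.4 FPKM in M28 and 213 ± 24.8 FPKM in K326 (SD, n = 3). Nitab4.5_0000300g0100 closed it from the side of K326, where it read 5.31, 5.99 and 8.16 FPKM at 0 h and 36.0, 28.9 and 22.1 FPKM at 4 h. In M28 it read 31.9, 42.0 and 37.2 FPKM at 0 h and 35.6, 29.6 and 39.8 FPKM at 4 h, so that M28 stood before drought at the level K326 had at 4 h (change -2.08, SE 0.25, adjusted p = 2.08e-05).

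Among the genes lower in M28 at 0 h, Nitab4.5_0004482g0050 read 29.5, 50 and 77.1 FPKM in K326 and 9.55, 6.78 and 9.21 FPKM in M28. At 4 h it was at or below 1.77 FPKM in all 6 libraries, which overlapped (change 2.80, SE 0.555, adjusted p = 0.00365). Nitab4.5_0000258g0320 read 8.22, 7.28 and 13.2 FPKM in K326 and 0.896, 1.13 and 0.791 in M28 at 0 h, and at most 0.681 FPKM in any library at 4 h (change 2.18, SE 0.393, adjusted p = 0.00195). When 0.1 FPKM was the pseudocount, the changes of these genes had adjusted p-values of 0.0644 and 0.304 (ranges over the alternatives 0.00188 to 0.0644 and 0.00102 to 0.304).

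**Figure D4:**
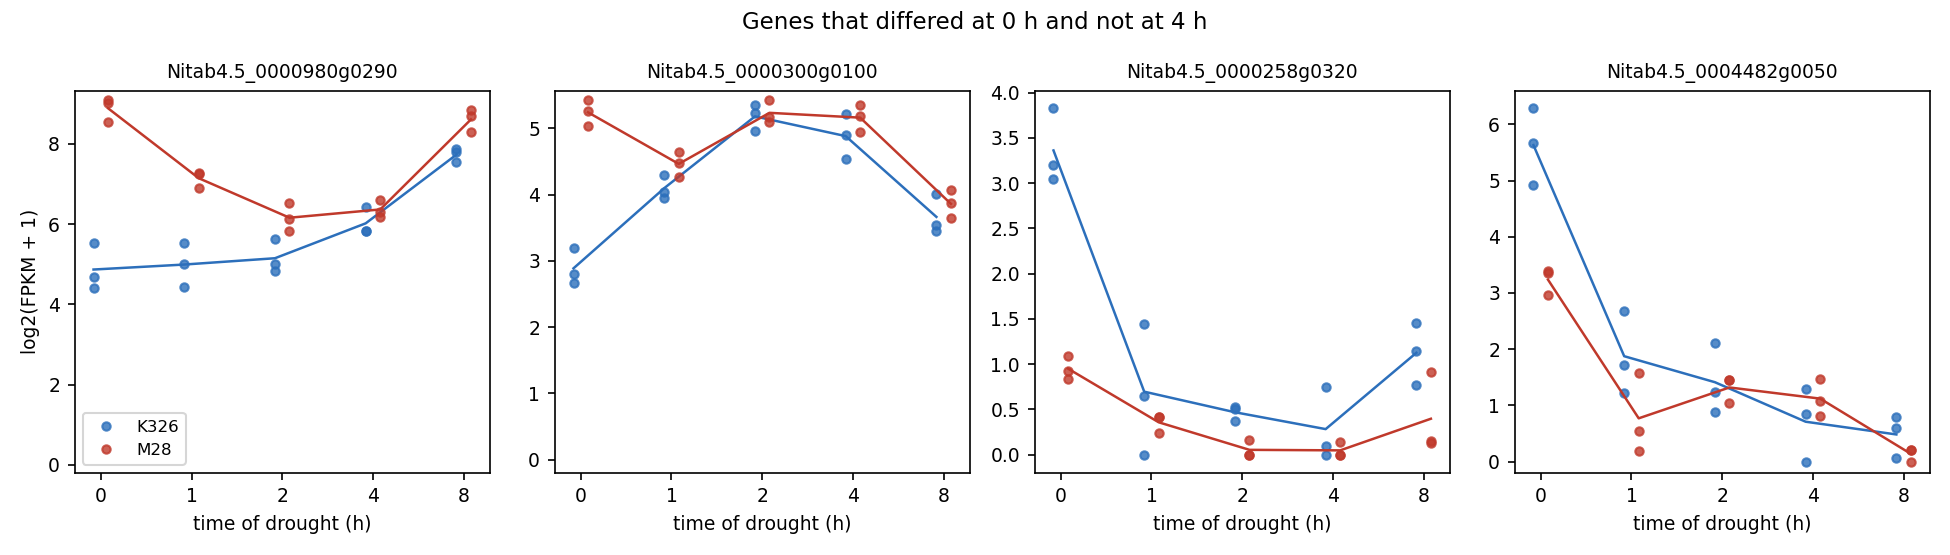
Expression of the 4 named genes that differed at 0 h and not at 4 h, as log2(FPKM + 1) by hours of drought, 1 point per library and lines through the group means (3 libraries each). Red M28 and blue K326 points are apart at 0 h, as their choice requires, and intermixed at 4 h. By 4 h, M28 falls towards K326 in the first gene, K326 rises towards M28 in the second, and both genotypes fall in the last pair. At 8 h the first gene is higher again in both genotypes, with M28 above K326.

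Smaller groups completed the 770 genes. In 13 genes the difference was called at 0 h below 2-fold and had grown by 4 h, 6 higher and 7 lower in M28, with log2 differences of 1.06 to 2.46 in size. In 150 genes, 101 higher and 49 lower, it was called at 0 h below 2-fold and its growth was not called. The 2 genes with opposite directions were taken up because there were so few. Nitab4.5_0000046g0160 read 35.2, 33.5 and 41.0 FPKM in K326 and 13, 19.3 and 11.2 FPKM in M28 at 4 h, without overlap, against means of 14.4 ± 2.75 and 20.4 ± 1.22 FPKM at 0 h (SD, n = 3, change -1.79, SE 0.249, adjusted p = 0.000112). Nitab4.5_0001204g0100 read 30, 21.0 and 31.6 FPKM in K326 and 9.44, 14.7 and 8.38 FPKM in M28 at 4 h, without overlap, against 2.61 ± 0.759 and 7.32 ± 2.79 FPKM at 0 h (change -2.46, SE 0.437, adjusted p = 0.00173). In FPKM as deposited both genes stood higher in M28 before drought and lower at 4 h. For Nitab4.5_0000046g0160 the log2 difference at 0 h was 0.49 (SE 0.176, adjusted p = 0.025) and was not called with median-of-ratios scaling (0.25, adjusted p = 0.303) or quantile normalization (0.25, adjusted p = 0.29), and its adjusted p ranged from 0.00767 to 0.303 over the scalings. For Nitab4.5_0001204g0100 it was 1.17 (SE 0.309, adjusted p = 0.00311), with adjusted p-values from 0.00156 to 0.02 over the scalings. The 90 undecided genes, 42 higher and 48 lower, had medians of 4.83 and 12.2 FPKM in the genotype with the higher level.

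Taking all genes, the change of the genotype difference from 0 to 4 h was called for 795 (4.06%), of which 172 (0.878%) moved up in M28 relative to K326 and 623 (3.18%) moved down. The share that moved up was 21.6% in FPKM as deposited, 47.2% with median-of-ratios scaling and 42% with quantile normalization. The count was 468 without M28 0 h replicate 3 and 495 without K326 4 h replicate 1.

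The direction of the differences at 4 h varied with the level of the gene. Of 160 genes averaging 500 FPKM or more over the 30 libraries, 55.6% were called lower and 12.5% higher in M28, with a median log2 difference of -0.33. Of 4999 genes with a mean of 1 to 5 FPKM, 4.36% were called lower and 20.1% higher, with a median of 0.21. With median-of-ratios scaling these shares were 67.5% lower and 6.88% higher for the abundant genes and 5.86% lower and 11.1% higher for the low ones, and with equal FPKM totals 46.9 and 16.2% against 3.68 and 27.6%. With quantile normalization, which gives every library the same distribution of values, 26.2% of the abundant genes were called in each direction, and the low genes were 7.74% lower and 8.82% higher. These scalings were chosen for this pattern after seeing the data. The smaller share of the FPKM total held by the 100 most abundant genes in M28 moves with this pattern, and its part in the result was not tested. That share was smaller in M28 at 0 h as well, where the median log2 difference of all tested genes was already 0.22. The pattern by level is given here for 4 h only. Differences of at least 2-fold were spread over all levels, with 4.82% of the genes at 1 to 5 FPKM, 3.39% at 5 to 50 FPKM, 4.53% at 50 to 500 FPKM and 6.88% above.

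Position was read from the scaffold and gene number in each ID, with the gene number taken as the order along the scaffold. The 770 genes lay on 589 of 2996 scaffolds with a tested gene. Of the tested genes next to them, 9.09% were themselves among the 770, against 3.93% of all tested genes. These formed 58 adjacent pairs, of which 38 differed in the same direction and the rest in opposite directions. The longest stretch of neighbouring genes called lower in M28 lay on scaffold Nitab4.5_0000037 and held 10 genes, the 12th to the 21st of its 21 tested genes. The next longest stretches of lower genes held 4. The stretch was noticed in the values and has no test of its own. Leaving out any 1 of the 6 libraries of 4 h left 7 or 8 of its 10 genes called lower, and without M28 4 h replicate 1, M28 4 h replicate 2 or K326 4 h replicate 3 the longest stretch held 4 genes on another scaffold.

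The stretch on Nitab4.5_0000037 contained very abundant transcripts as well as low ones. Its 2nd gene read 15702, 14819.6 and 15547.5 FPKM in K326 at 4 h and 3671.9, 3368.1 and 3787.7 FPKM in M28, a log2 difference of -2.09 (SE 0.126, adjusted p = 4.39e-12). Its 8th gene read 11890.3, 11346.1 and 11447.6 FPKM in K326 and 3056.9, 2912.2 and 2859.1 FPKM in M28, a log2 difference of -1.97 (SE 0.0887, adjusted p = 8.28e-15). In both genes every K326 library lay far above every M28 library. Differences over the 10 genes ran from -2.29 to -0.51, and 6 were at least 2-fold. The genes at places 12, 15, 17 and 21 of the scaffold were low, with K326 means of 2.68, 7.8, 2.63 and 8.36 FPKM at 4 h. In the last of these the libraries overlapped, with up to 4.24 FPKM in M28 and from 4.04 FPKM in K326. The gene at place 14 was called only narrowly (adjusted p = 0.0472). At 0 h 7 of the 10 were called lower and at 8 h 9 were (8.71 and 6.96% of all genes). The levels themselves moved in different ways under drought: the 5th gene of the stretch had means of 100 FPKM at 0 h and 575 at 4 h in K326 and was one of the new differences, while the 7th and 9th had K326 means of 1046.1 and 813 FPKM at 0 h and of 75.5 and 86.1 FPKM at 4 h. Whether these neighbours are near-identical copies that share reads was not tested.

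**Figure D5:**
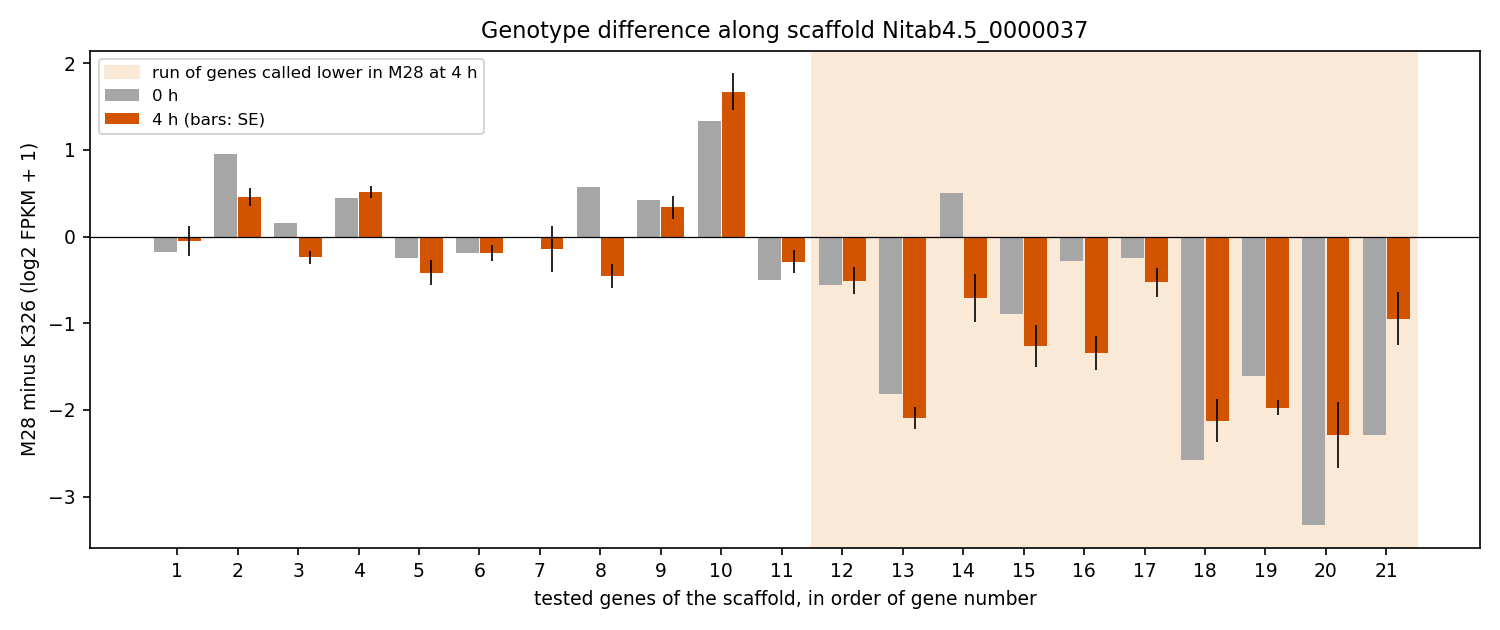
Log2 difference M28 minus K326 on the scale of log2(FPKM + 1) at 0 h (grey) and 4 h (orange, bars are SE) for the 21 tested genes of scaffold Nitab4.5_0000037 in order of gene number. The shaded last 10 genes lie below 0 at 4 h, from -2.29 to -0.51, and the gene at place 14 lies above 0 at 0 h.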

How the data were processed

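FPKM values were deposited by the authors in 1 table, with a column for each library. The unit was taken from the name of the table and its values; TPM over a larger gene set could not be told apart. FastQC, Trimmomatic, HISAT2 and featureCounts are named in the submitters' processing notes. Their versions and roles, the genome build and how FPKM was computed are not given in the sources used here. Of 35519 gene IDs, 0 matched the RefSeq table of assembly ASM71507v2, so genes are given by ID, the drought gene lists and tissue markers drawn up for this work could not be matched, and no sequence is shown.

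Groups, times and replicate numbers came from sample titles. Genes averaging 1 FPKM or more over the 30 libraries were analysed as log2(FPKM + 1), with no further scaling, in one fit of 10 groups with limma 3.58.1 in R 4.3.3 (empirical Bayes with a mean-variance trend, no block). P-values were adjusted by Benjamini-Hochberg over 19599 genes within each comparison: M28 minus K326 at each time, and the 4 h minus the 0 h difference. A difference was new if called at least 2-fold at 4 h, not called at 0 h and called in the last comparison, and gone in the reverse case. Named genes are the first 2 per direction by size in each of 3 classes, with 5 FPKM or more in the higher group and libraries that did not overlap; others named were chosen after their values were seen. The comparison, lists and rules were chosen with earlier results of these data known.

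On simulated data, in which 200 of 19599 genes were altered 2-fold, all of them above 5 FPKM, the fit recovered 95% of them in the 4 h comparison and 83% in the change of the difference, with 9 and 11 false calls. Relative depth came from ratios between libraries of low values of 3007 genes above 0 in at most 15 libraries; 85.5% of 435 library pairs fitted one set of depths within 0.005 on the log2 scale.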

Additional observations from a re-analysis of the deposited data

Results flagged for a closer look

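The genotype difference at 4 h differed from that at 0 h, by a test of the change itself, for 795 genes. Groups hold 3 libraries, which is too few for a check of single outlying libraries. Among the named genes, those whose difference changed downward in M28 relative to K326 were Nitab4.5_0000980g0290 (change of the log2 difference -3.68), Nitab4.5_0000136g0200 (-2.85), Nitab4.5_0001204g0100 (-2.46), Nitab4.5_0000716g0020 (-2.28), Nitab4.5_0000300g0100 (-2.08) and Nitab4.5_0000046g0160 (-1.79). Those whose difference changed upward were Nitab4.5_0004482g0050 (2.80), Nitab4.5_0000258g0320 (2.18), Nitab4.5_0001461g0050 (1.79) and Nitab4.5_0000306g0170 (1.27). Nitab4.5_0000046g0160 and Nitab4.5_0001204g0100 were added after their values were seen, because their directions at 0 and 4 h were opposite, and the others were picked for large values. No cause was tested.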

How the results depend on the processing

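The 6 counts given in the report were recomputed under 22 alternatives, and each stayed within 1.5 times its reported value except as follows. With a pseudocount of 0.1 FPKM 1158 genes were at least 2-fold at 4 h, against 770, since the smaller pseudocount widens the differences of low genes. Leaving out 1 library at a time gave 468 to 873 genes with a called change of the difference, 21 to 38 new differences, 66 to 91 that were gone, 460 to 520 present at both times, 745 to 866 at least 2-fold at 4 h and 5608 to 7441 called at 4 h. Membership moved more than the counts: 232 of 482 genes at both times, 5 of 33 new genes and 23 of 78 gone genes were found under all alternatives. Replicate numbers are shared between groups, but same-numbered M28 and K326 libraries correlated by only 0.0306 to 0.0515 at 4 h and -0.0842 to 0.0484 at 0 h in their deviations from the group means, so the numbers were not taken as pairs. At 4 h each library correlated best with its own number. The K326 libraries of 0 h and 4 h did so too, by 0.0335 to 0.0789. Those of M28 at 0 h and 4 h did not, nor did the genotypes at 0 h. This is a hint from the data and not the design. A replicate block in the fit gave 7065 genes called at 4 h, 775 at least 2-fold, 486 at both times, 35 new, 76 gone and 762 with a called change. Of 526 recomputed values of named genes, 0 reversed and 22 lost their call, each of them a change from 0 to 4 h. In the stretch on Nitab4.5_0000037, 7 to 10 genes were called lower, and it held the longest run of lower genes in 19 of 22 alternatives, chosen after seeing the data. Depth in reads is unknown, so no counting interval is given and low genes are the least precise.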

Other observations

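Other scaffolds held several genes that differed at least 2-fold at 4 h, and they were picked after their values were seen. On scaffold Nitab4.5_0003558, 4 of 6 tested genes were at least 2-fold lower in M28, and 4 of these were so at 0 h as well. On scaffold Nitab4.5_0007026, 4 of 7 tested genes were at least 2-fold higher in M28 at 4 h, 3 of them at 0 h as well. In all, 38 scaffolds held at least 3 of the 770 genes. No test was made of these counts.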
